A study of Mus musculus with 6 samples.

Results

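A set of 10 genes that share parental imprinting and a role in growth was followed: H19, Meg3, Rian, Dlk1, Peg3, Cdkn1c, Grb10, Mest, Plagl1 and Ndn. They were chosen by name and matched by mouse symbol to Ensembl identifiers, and all 10 were found once among the 55401 genes of the count table. The RNA came from C3H10T1/2, a mouse mesenchymal cell line that can be led toward bone, fat or muscle in culture. It was sequenced in 3 derivatives that carry a control short hairpin RNA (shControl), a hairpin against Nfib (shNFIB) or a hairpin against Kmt2a, the gene for the histone methyltransferase MLL1 (shMLL1). Each derivative was sampled untreated at day 0 and at day 7 of osteogenic medium containing 0.1 µM dexamethasone, ascorbic acid 2-phosphate at 100 µg/ml and β-glycerophosphate at 20 mM, so that day and medium cannot be told apart. Every one of the 6 conditions had 1 library, all lines carry a hairpin, and whether a line was 1 clone or a pool is not given in the sources used here.

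An imprinted gene is read mainly from the copy inherited from one parent, and many such genes act on growth of the fetus and of its stem and progenitor cells. H19, Meg3 and Rian are long noncoding RNAs read from the maternal copy, in clusters whose paternal copies give growth factors or signalling proteins. Cdkn1c, a cyclin-dependent kinase inhibitor, and Grb10, an adaptor that restrains insulin and IGF receptor signalling, are growth inhibitors read from the maternal copy in most tissues. Dlk1, Peg3, Mest, Plagl1 and Ndn code for proteins and are read from the paternal copy. Gene counts hold no parental origin, so what follows is the summed level of both copies.

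The 6 libraries held between 21608680 and 34774066 counts. Levels were scaled with trimmed mean of M-values (TMM) factors. Both hairpin targets were lower in their own line at both days: Nfib by 3.29-fold at day 0 and 10.2-fold at day 7 in shNFIB, and Kmt2a by 2.42-fold and 1.90-fold in shMLL1. Neither passed the test over both days described below (adjusted p = 0.140 and 0.173, edgeR quasi-likelihood). All 10 mesenchymal markers, with Col1a1 and Col1a2 among them, were over 3 counts in every library, and 4 of 5 haematopoietic markers had at most 3 counts everywhere. The exception, Cd68, had 62, 38 and 66 counts at day 0 and 217, 118 and 185 at day 7 in shControl, shNFIB and shMLL1. At most 3 counts everywhere were also found for 2 of 5 endothelial, 3 of 6 epithelial and 5 of 8 skeletal muscle markers. Others were present, with up to 795 counts for the endothelial marker Tek and up to 286 for the epithelial marker Cdh1. Of 10 adipocyte markers, Adipoq had at most 1 count in any library, but 6 of the 9 with at least 10 counts were over 2-fold higher at day 7 than at day 0 in shControl. Of all genes, 37.9% were over 2-fold in either direction there. Among these 6 markers Lpl had 6 counts at day 0 and 1084 at day 7, Cidec 0 and 681, and Plin1 0 and 472. The markers under 2-fold were Fabp4, with 148 and 141 counts, Cebpa, with 608 and 313, and Pparg, with 867 and 1279. The summed level of 14 proliferation markers went from 2470, 3350 and 2640 CPM (counts scaled to library size) at day 0 to 438, 337 and 306 CPM at day 7 in shControl, shNFIB and shMLL1. In these bulk samples, fewer cells that express a gene and less RNA per cell cannot be told apart.

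Of the 10 genes, 4 were close to silent in this line. Meg3, Rian, Peg3 and Cdkn1c had under 10 counts in every library and 25 counts together, of 179377178 in all. Meg3 (ENSMUSG00000021268, chromosome 12 from 109541001 to 109571726) had 3, 0 and 0 counts at day 0 and 1, 4 and 1 at day 7, in the order shControl, shNFIB, shMLL1 that is kept throughout. Rian (ENSMUSG00000097451, chromosome 12 from 109603940 to 109661716), a host of small nucleolar RNAs in the same cluster, had 4, 1 and 0 counts at day 0 and 0, 1 and 2 at day 7. Both maternal noncoding RNAs of this cluster were thus at a few reads at most, in libraries where Dlk1, the paternally read gene beside them, had up to 294 counts. Peg3 (ENSMUSG00000002265, chromosome 7 from 6703892 to 6730431), a zinc finger protein, had 0, 1 and 0 counts at day 0 and 0, 1 and 1 at day 7. Cdkn1c (ENSMUSG00000037664, chromosome 7 from 143458339 to 143461050) had no count at day 0 and 4, 1 and 0 counts at day 7. Up to 3 counts in a library were taken as the floor, which lay between 0.0939 and 0.123 CPM, and for these 4 genes no difference between libraries was detectable at this depth. Libraries were prepared from total RNA with a TruSeq RNA kit, and the annotated small RNA genes inside H19, Meg3 and Rian that are in the table had 0 counts in every library.

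Per exonic length, the remaining 6 genes spanned more than 2 orders of magnitude. Grb10 (ENSMUSG00000020176, chromosome 11 from 11930508 to 12038683) had the highest median level over the 6 libraries, 18.1 RPKM (reads per kilobase of exons, scaled to library size), and lay between the percentiles 79.1 and 95.3 of 21897 protein-coding genes. Ndn (ENSMUSG00000033585, chromosome 7 from 62346569 to 62350262), which codes for the growth suppressor necdin, followed with a median of 4.07 RPKM and the widest spread of percentiles among the genes with counts in every library, 47.9 to 85.0. Dlk1 (ENSMUSG00000040856, chromosome 12 from 109452823 to 109463336), a transmembrane protein of the Notch ligand family that holds back fat cell formation, had a median of 0.623 RPKM. Plagl1 (ENSMUSG00000019817, chromosome 10 from 13060504 to 13131694), a zinc finger transcription factor, had a median of 0.244 RPKM. H19 (ENSMUSG00000000031, chromosome 7 from 142575529 to 142578143) had 0.147 RPKM and Mest (ENSMUSG00000051855, chromosome 6 from 30723547 to 30748465), a hydrolase family protein, 0.118 RPKM. The ranges of neighbours in this order overlapped, except that Mest, at 0.0420 RPKM or more, stayed above Meg3, at 0.00748 RPKM or less. Within each library Grb10 was above Ndn.

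**Figure D1:**
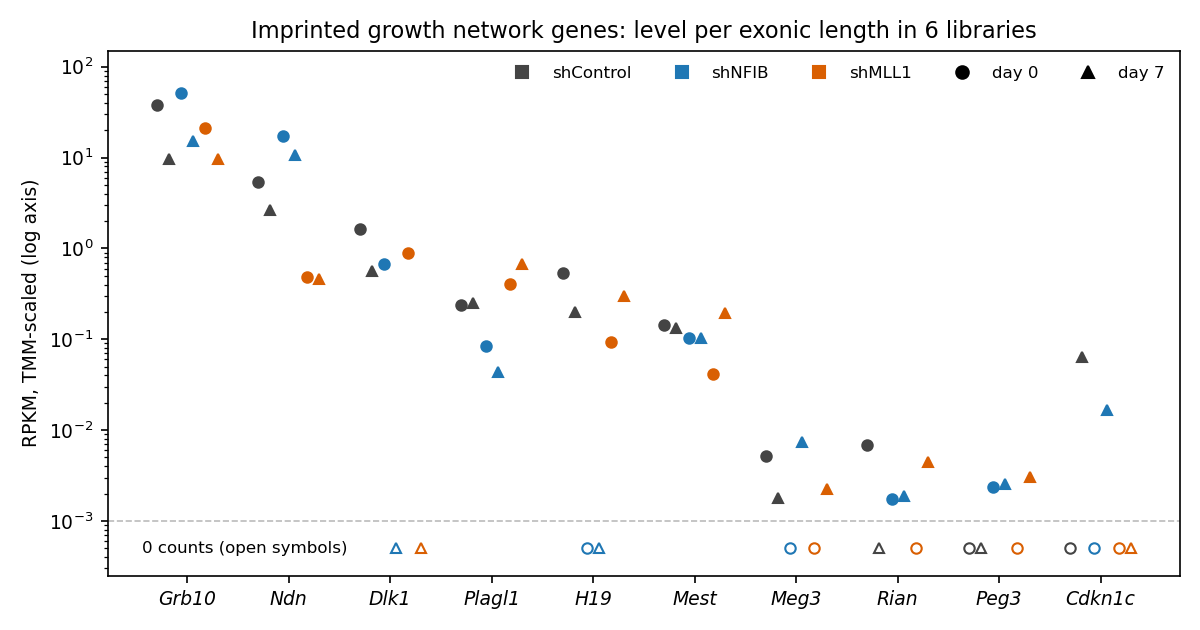
Level of each gene per exonic length (RPKM after TMM scaling, log axis) in the 6 libraries, ordered by median. Colour gives the line and shape the day; open symbols below the dashed line are libraries with 0 counts. Grb10 lies between 9.56 and 51.4 RPKM, while Meg3, Rian and Peg3 are at 0 or below 0.01 RPKM and Cdkn1c has counts in 2 libraries.

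The promoters of 4 genes that differed between libraries are shown here because Nfib codes for a factor that binds the NFI motif TTGGC or GCCAA. Sequences are from RefSeq on GRCm38.p6, 250 bases before to 50 bases after an annotated start, 5′ to 3′ on the gene's strand, with NFI motifs in capitals. An entry was found for 8 of the 10 genes. Dlk1 is at chr12:109452573-109452872 on the plus strand, Ndn at chr7:62348027-62348326 on the plus strand, Plagl1 at chr10:13090582-13090881 on the plus strand and Grb10, by the first of 2 starts in the table, at chr11:12037371-12037670 on the minus strand.
Dlk1: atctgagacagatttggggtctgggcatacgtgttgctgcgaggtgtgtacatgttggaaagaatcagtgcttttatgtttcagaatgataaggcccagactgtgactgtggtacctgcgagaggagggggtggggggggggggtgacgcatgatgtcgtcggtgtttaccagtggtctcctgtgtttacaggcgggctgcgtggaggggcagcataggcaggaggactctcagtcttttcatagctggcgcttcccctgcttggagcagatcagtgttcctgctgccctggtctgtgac
Ndn: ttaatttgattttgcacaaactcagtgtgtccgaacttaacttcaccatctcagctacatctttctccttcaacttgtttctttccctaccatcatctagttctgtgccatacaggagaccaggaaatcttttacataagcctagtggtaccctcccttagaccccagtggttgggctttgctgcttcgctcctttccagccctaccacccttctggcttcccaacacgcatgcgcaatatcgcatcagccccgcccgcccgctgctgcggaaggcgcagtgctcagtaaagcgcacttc
Plagl1: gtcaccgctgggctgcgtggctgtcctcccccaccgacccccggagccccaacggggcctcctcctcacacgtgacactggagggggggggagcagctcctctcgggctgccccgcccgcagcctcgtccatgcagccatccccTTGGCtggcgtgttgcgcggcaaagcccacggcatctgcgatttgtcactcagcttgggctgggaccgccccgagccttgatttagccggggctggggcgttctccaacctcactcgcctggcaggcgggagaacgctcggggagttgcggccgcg
Grb10: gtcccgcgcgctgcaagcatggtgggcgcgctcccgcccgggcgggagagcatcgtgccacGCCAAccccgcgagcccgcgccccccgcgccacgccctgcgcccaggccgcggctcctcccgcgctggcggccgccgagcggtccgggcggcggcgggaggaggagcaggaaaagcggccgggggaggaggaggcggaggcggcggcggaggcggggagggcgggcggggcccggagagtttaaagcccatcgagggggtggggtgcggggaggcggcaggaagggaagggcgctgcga
Grb10 holds 1 NFI motif at -189 and Plagl1 1 at -106 from the start, and the Dlk1 and Ndn windows hold none. Of 32817 promoters of the same length, 46.7% hold at least 1 such motif on either strand, so that its presence or absence in 4 windows is a description only. The Grb10 window shown holds 45 CG dinucleotides, the percentile 98.1 of these promoters, against 26 in Plagl1 (83.1), 11 in Ndn (58.6) and 9 in Dlk1 (54.2). The window of the other Grb10 start, at chr11:12027922-12028221, holds 9 (54.2), as many as Dlk1, and 1 NFI motif at -122. The RefSeq start of Ndn lies 1708 bases inside the single exon of the annotation used for positions, that of Plagl1 30328 bases inside its gene, and the start shown for Grb10 1263 bases inside.

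Grb10 and Dlk1 fell from day 0 to day 7. Differences over the 3 lines were tested with edgeR's quasi-likelihood method on 15741 genes, with line entered as a block and p-values adjusted by Benjamini-Hochberg over all of them, which leaves 2 residual degrees of freedom. Of the 10 genes, 6 had enough counts to be tested, and 2 of them passed an adjusted p of 0.05, both lower. Of all genes tested, 17.0% were called lower and 17.7% higher, and the median log2 fold change was -0.33 over the 6 genes and -0.02 over all genes.

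Grb10 had 10904, 14760 and 5811 counts at day 0 and 2680, 4070 and 2121 at day 7. In CPM these are 341, 467 and 193 at day 0 and 87.9, 138 and 86.9 at day 7, so that the highest day 7 library was below the lowest day 0 library. How many of all genes separate the days in this way was not counted. The log2 fold change was -1.62 (SE 0.23, adjusted p = 0.00386, edgeR), a 3.07-fold lower level. Between the libraries of each line the level fell by 3.88-fold in shControl, 3.39-fold in shNFIB and 2.22-fold in shMLL1. Grb10 and the proliferation markers fell between the same libraries, and their part in each other's fall was not tested. Of 12566 genes with at least 100 counts in a library, those with the profile nearest to Grb10 over the 6 libraries were Prkar2a, Kcnab2 and 1700025G04Rik, at root mean square distances of 0.09, 0.12 and 0.13 on the log2(CPM + 0.5) scale after centring. Prkar2a, a regulatory subunit of protein kinase A, had 2661, 3933 and 1642 counts at day 0 and 762, 1150 and 528 at day 7. The spread of Grb10 itself on this scale was 0.92.

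Dlk1 had 294, 121 and 154 counts at day 0 and 98, 0 and 0 counts at day 7. The groups of the days did not overlap, with 9.20, 3.83 and 5.10 CPM at day 0 and 3.21 CPM in shControl at day 7, and both knockdown lines dropped to no count at all. Here too the share of all genes with separate days was not counted. In shControl the level was 2.86-fold lower at day 7, a log2 fold change of -1.52 with a 95% exact binomial (Clopper-Pearson) interval of -1.86 to -1.18 that covers counting error only. Against the floor of 3 counts in the day 7 library, Dlk1 was at least 37.8-fold lower in shNFIB and at least 41.5-fold lower in shMLL1. The test over lines gave an adjusted p of 0.0379 (edgeR), and its fitted log2 fold change of -4.21 (SE 1.24) depends on how libraries at 0 are handled. Without the line as a block Dlk1 was at -2.47 and did not pass (adjusted p = 0.245). With shControl left out the fitted value was -10.0 (adjusted p = 0.000708), and with shNFIB or shMLL1 left out it was -3.16 (0.0355) or -2.95 (0.0477). Smpdl3b, Acat2 and Papss2 had the nearest profiles, at larger distances of 0.50, 0.60 and 0.65 against a spread of 1.68 for Dlk1. Acat2, an enzyme of sterol synthesis, had 6233, 4146 and 3121 counts at day 0 and 2135, 738 and 541 at day 7.

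**Figure D2:**
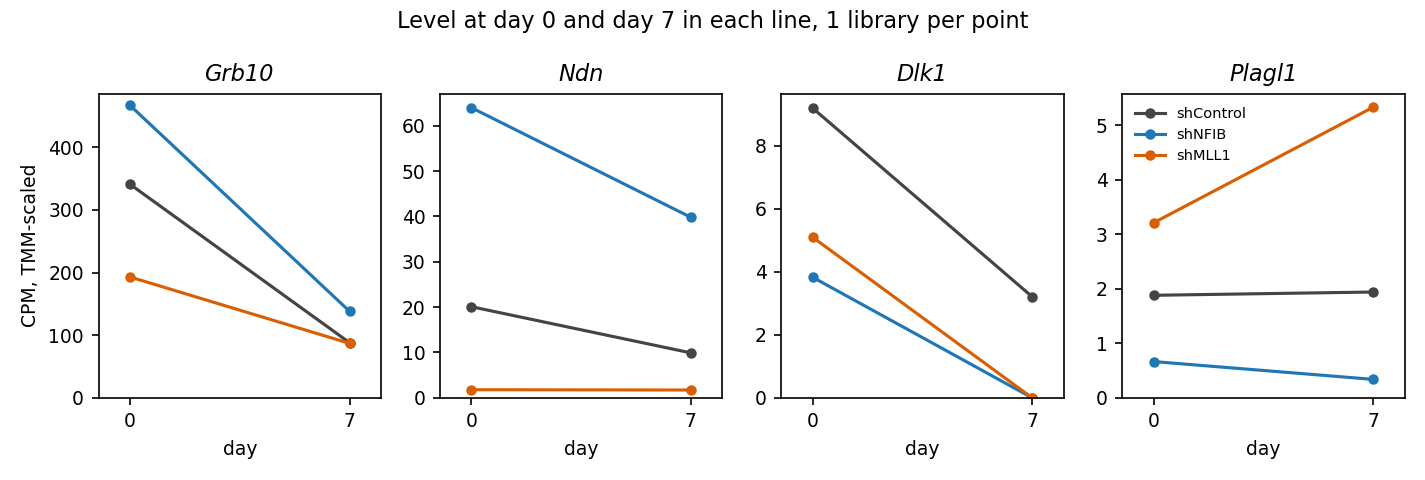
Level in CPM after TMM scaling (linear axes from 0) at day 0 and day 7 for Grb10, Ndn, Dlk1 and Plagl1, 1 library per point and 1 coloured line per derivative. Grb10 is lower at day 7 in all 3 derivatives, Dlk1 reaches 0 CPM at day 7 in shNFIB and shMLL1 and 3.21 CPM in shControl, and the 3 derivatives stay in the same order at both days for Ndn and for Plagl1.

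The other tested genes did not pass the day comparison. Ndn was at 20.1, 64.0 and 1.79 CPM at day 0 and 9.91, 39.8 and 1.72 CPM at day 7, a log2 fold change of -0.62 (SE 0.24, adjusted p = 0.0800, edgeR). It was lower at day 7 by 2.03-fold in shControl and 1.61-fold in shNFIB, while the log2 fold change in shMLL1 was -0.06 (-0.67 to 0.55), and with shMLL1 left out the value was -0.82 (adjusted p = 0.0231). Plagl1 was at 0.03 (SE 0.44), Mest at 0.61 (SE 0.61) and H19 at -0.05 (SE 0.91), with adjusted p of 0.960, 0.463 and 0.973. H19 had opposite signs in the lines with counts, 42 to 15 counts in shControl and 7 to 18 in shMLL1, or log2 fold changes of -1.41 (-2.38 to -0.54) and 1.65 (0.34 to 3.17). Mest had 18, 13 and 5 counts at day 0 and 16, 12 and 19 at day 7, with only the shMLL1 pair apart by over 2-fold (a 4.60-fold ratio, log2 2.2, log2 interval 0.76 to 4.01).

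Within single lines, a gene was called different between 2 libraries when it changed by over 2-fold with at least 10 counts in one of them. In shControl, 4 of the 6 imprinted genes with such counts were over 2-fold, all lower at day 7 (H19, Dlk1, Grb10 and Ndn), against 37.9% of all genes in either direction. In shNFIB 2 of 5 were over 2-fold, both lower (Dlk1 and Grb10), against 30.5%. In shMLL1 4 of 6 were over 2-fold, Dlk1 and Grb10 lower and H19 and Mest higher, against 45.6%. With genes at 0 set to their bound, the median log2 fold change was -0.97 in shNFIB and 0.34 in shMLL1, and it was -1.22 in shControl, beside medians of all genes between -0.03 and 0.04.

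At both days Ndn was higher in shNFIB and lower in shMLL1 than in shControl. It had 643 and 302 counts in the shControl libraries of day 0 and day 7, against 2022 and 1176 for shNFIB and 54 and 42 for shMLL1. All shNFIB libraries were above all shControl libraries, and all shControl libraries above all shMLL1 libraries. With 1 library per line and day, the share of all genes whose lines separate fully was not counted. Against shControl it was 3.18-fold higher in shNFIB at day 0 and 4.01-fold higher at day 7, log2 fold changes of 1.67 (1.54 to 1.80) and 2.01 (1.82 to 2.19). In shMLL1 it was 11.2-fold lower at day 0 and 5.74-fold lower at day 7, or -3.49 (-3.92 to -3.09) and -2.52 (-3.03 to -2.06). Over both days, in the same edgeR fit with day as a term, the differences were 1.78 for shNFIB (SE 0.28, adjusted p = 0.0787) and -2.97 for shMLL1 (SE 0.31, adjusted p = 0.0808), neither past 0.05. With any 1 compared library left out, the fitted value was between -3.33 and -2.59 for shMLL1 and between 1.5 and 2.11 for shNFIB. DESeq2's test called Ndn for both lines, where it called 3.71% of all genes for shNFIB and 2.57% for shMLL1. The shNFIB difference passed in a fit of the 4 shNFIB and shControl libraries alone (1.79, adjusted p = 0.00576, edgeR). That smaller fit called many more of all genes than the fit of all libraries, and its counterpart for shMLL1 called 1 of the 10. The direct contrast of the knockdown lines, added after the values of Ndn and Plagl1 had been seen, put Ndn 27.0-fold lower in shMLL1 than in shNFIB (-4.75, SE 0.33, adjusted p = 0.0153, edgeR), where 0.254% of all genes were called. Without day as a term this call was lost (-4.79, adjusted p = 0.791). Ndn was the only one of the 10 called there. Grb10 was at -0.87 in the same contrast (SE 0.28, adjusted p = 0.184), and at -1.21 with shMLL1 at day 7 left out. The nearest profiles to Ndn were Col8a2, the pseudogene Gm11427 and Khdrbs3, at distances of 0.60, 0.63 and 0.67 against a spread of 1.88. Col8a2, a collagen chain, had 1820, 2099 and 111 counts at day 0 and 822, 1609 and 171 at day 7.

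Ndn lies in a region of chromosome 7 with other imprinted genes, and 3 of these neighbours had enough counts to be set beside it. Peg12 (chromosome 7 from 62461871 to 62464510) had 223, 472 and 170 counts at day 0 and 55, 108 and 41 at day 7. Its level in shNFIB was 2.14-fold and 2.02-fold that of shControl at day 0 and day 7, and the ratio of shControl to shMLL1 was 1.24 and 1.07, where that of Ndn was 11.2 and 5.74. Over both days Peg12 was at 1.02 for shNFIB (adjusted p = 0.301) and -0.17 for shMLL1 (adjusted p = 0.929). It fell from day 0 to day 7, with a log2 fold change of -1.91 (SE 0.28, adjusted p = 0.00405). Mkrn3 (chromosome 7 from 62417593 to 62420139), a ring finger protein, lies between Ndn and Peg12 and rose with day (1.69, SE 0.32, adjusted p = 0.00985), from 44, 39 and 43 counts to 142, 110 and 114. Its levels in the 3 lines were close to each other at each day. Magel2, between Ndn and Mkrn3, had 0 counts in every library. Ube3a, farther along the chromosome and read from the maternal copy in neurons, was at 67.2, 85.8 and 56.3 CPM at day 0 and 38.1, 75.8 and 46.1 CPM at day 7, and passed no test. Snrpn and Snurf had 0 counts throughout. For Snurf 100% of the exonic bases are shared with Snrpn or another gene on the same strand, so that reads there can be left unassigned by the counting. For Snrpn this share is 27.3%.

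**Figure D3:**
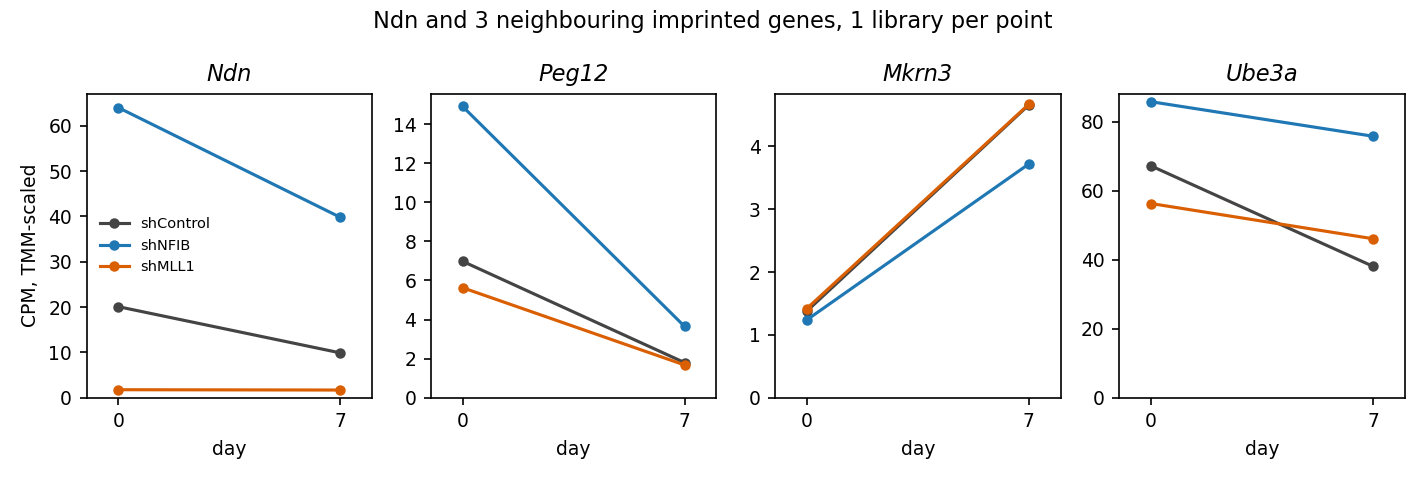
Level in CPM after TMM scaling (linear axes from 0) of Ndn and of 3 imprinted genes of the same chromosome 7 region at day 0 and day 7, 1 library per point and 1 coloured line per derivative. Ndn separates the 3 derivatives at both days, Peg12 is higher in shNFIB and falls in all 3 derivatives, Mkrn3 is higher at day 7 in all 3, and the Ube3a levels run from 38.1 to 85.8 CPM.

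Plagl1 also went in opposite directions in the knockdown lines, and opposite to Ndn. It had 60 and 59 counts in the shControl libraries of day 0 and day 7, against 21 and 10 for shNFIB and 97 and 130 for shMLL1. The 3 lines thus did not overlap, a separation whose share among all genes was not counted. In shNFIB it was 2.81-fold lower at day 0 and 5.66-fold lower at day 7, or -1.49 (-2.29 to -0.76) and -2.50 (-3.65 to -1.54). In shMLL1 it was 1.71-fold higher at day 0 and 2.75-fold higher at day 7, or 0.77 (0.30 to 1.26) and 1.46 (1.01 to 1.93). Over both days the values were -1.96 for shNFIB (SE 0.54, adjusted p = 0.234) and 1.20 for shMLL1 (SE 0.50, adjusted p = 0.547, edgeR). The added contrast gave 3.15 for shMLL1 against shNFIB, an 8.88-fold higher level that did not pass (SE 0.55, adjusted p = 0.0772). The value was 3.65 with shMLL1 at day 0 left out and 2.64 with shMLL1 at day 7 left out. With any 1 compared library left out it ran from 2.52 to 3.84. DESeq2's test called Plagl1 in this contrast, where it called many more of all genes than edgeR. The nearest profiles were Pag1, Acp6 and Atp2b4, at distances of 0.27, 0.28 and 0.30 against a spread of 0.94. Pag1, a membrane adaptor, had 243, 82 and 237 counts at day 0 and 275, 65 and 354 at day 7.

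Dlk1 was lower than in shControl in both knockdown lines at both days. At day 0 it was 2.40-fold lower in shNFIB (-1.26, interval -1.58 to -0.95) and 1.80-fold lower in shMLL1 (-0.85, -1.14 to -0.56). At day 7, with 98 counts in shControl and none in either knockdown line, it was at least 31.7-fold lower in shNFIB and at least 26.1-fold lower in shMLL1. Neither line passed the test over both days (adjusted p = 0.39 and 0.588, edgeR). That fit has no term for a line difference that changes between days. The wider gap of Dlk1 at day 7 therefore adds to the spread it was tested against. With 1 compared library left out, the fitted log2 fold change ran from -9.81 to -1.31 for shNFIB and from -9.28 to -0.78 for shMLL1. Most adipocyte markers were also lower in the knockdown lines at day 7, where 7 of the 9 with at least 10 counts were over 2-fold below shControl in shNFIB and 8 of 9 in shMLL1. Of all genes, 21.3% and 15.5% were over 2-fold in either direction in these comparisons. Fabp4 differed little, with 141, 116 and 118 counts. Retn had 117 counts in shControl and none in either knockdown line, where Dlk1 had 98 and none, and Plin1 had 472, 9 and 28 counts, while Pparg was higher in shNFIB, with 1279, 2489 and 509. The summed level of the 10 markers was 51.2, 63.5 and 18.3 CPM at day 0 and 143, 93.5 and 30.3 CPM at day 7, of which Pparg made up 84.2 CPM in shNFIB at day 7. In shControl 6 of these markers were higher at day 7 where Dlk1 was lower, and their part in the levels of Dlk1 was not tested.

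H19 was at 0 counts in both shNFIB libraries. It had 42 and 15 counts in shControl and 7 and 18 in shMLL1 at day 0 and day 7. The level in shNFIB was therefore at least 13.8-fold lower than in shControl at day 0 and at least 4.85-fold lower at day 7, each against the floor of 3 counts in the shNFIB library. The edgeR test over both days did not pass (adjusted p = 0.168), and it did in a fit of the 4 shNFIB and shControl libraries alone (adjusted p = 0.0307). That smaller fit called many more of all genes than the fit of all libraries. In shMLL1 H19 was 5.59-fold lower at day 0 (-2.48, interval -3.90 to -1.34) and at a ratio of 1.49 to shControl at day 7 (0.58, -0.49 to 1.68). Igf2, the growth factor gene that shares a cluster with H19, had 4, 3 and 3 counts at day 0 and 42, 0 and 1 at day 7. Its 42 counts in shControl at day 7 stood apart from the other 5 libraries, and 62.8% of its exonic bases are shared with other genes on the same strand.

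For Grb10 and Mest neither knockdown line passed the test. Grb10 in shNFIB was at 1.37-fold and 1.57-fold the level of shControl at day 0 and day 7, and 1.77-fold lower in shMLL1 at day 0. The day 7 difference in shMLL1 was -0.02 on the log2 scale (-0.10 to 0.07). Its differences over both days were 0.50 (SE 0.28, adjusted p = 0.522) for shNFIB and -0.37 (SE 0.28, adjusted p = 0.745) for shMLL1. Mest was at -0.46 (SE 0.73, adjusted p = 0.838) and -0.34 (SE 0.74, adjusted p = 0.935), and its 3.34-fold lower value in shMLL1 at day 0 rests on 5 counts. Reads of Mest are uncertain, because 912 of its 3945 exonic bases overlap Copg2 on the opposite strand, which had 864 to 1964 counts, and the strand setting of the counting is not given in the sources used here.

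**Figure D4:**
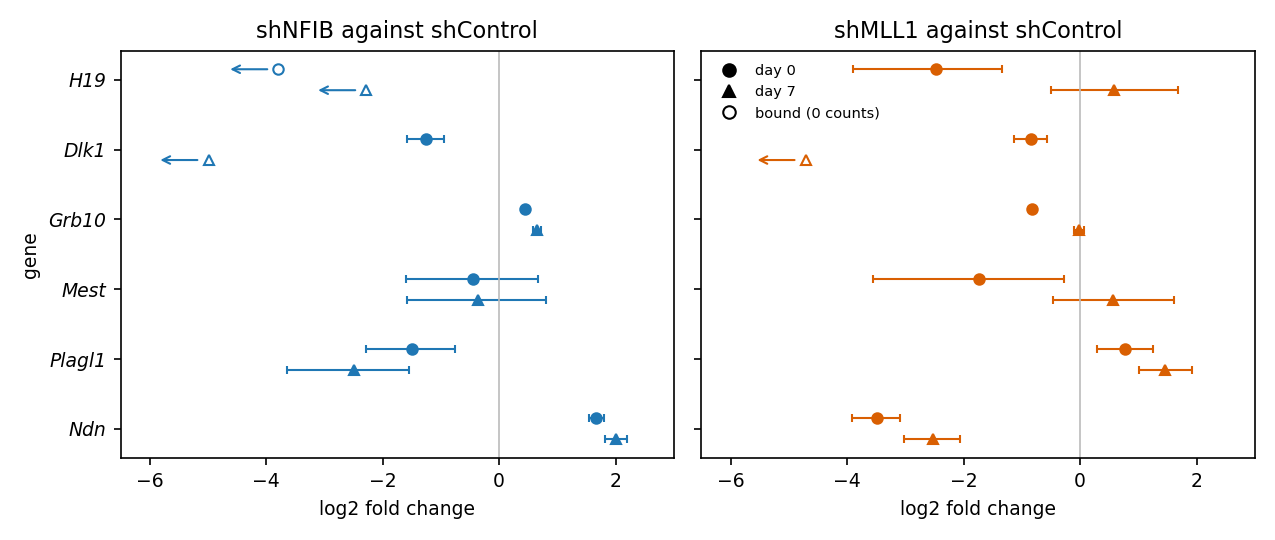
Log2 fold change of each knockdown line against shControl at day 0 (circles) and day 7 (triangles) for the 6 genes with at least 10 counts in a library. Bars are 95% Clopper-Pearson intervals that cover counting error only, and open symbols with an arrow are bounds for libraries with 0 counts. Ndn is at 1.67 and 2.01 in shNFIB and at -3.49 and -2.52 in shMLL1, and Plagl1 has the opposite signs.

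Counted over the 6 genes with at least 10 counts, 4 were over 2-fold in shNFIB at day 0, with 1 higher and 3 lower, against 13.6% of all genes. At day 7 again 1 was higher and 3 lower in shNFIB, against 21.3%. These were the same 4 genes at both days, Ndn higher and H19, Dlk1 and Plagl1 lower. In shMLL1, 3 were over 2-fold at day 0, all lower (H19, Mest and Ndn), against 20.4%, and 3 at day 7 (Dlk1 and Ndn lower, Plagl1 higher), against 15.5%. The median log2 fold changes were -0.86 and -1.30 at day 0 in shNFIB and shMLL1, beside 0.09 and -0.04 over all genes, and -1.32 and 0.27 at day 7 with bounds for genes at 0, beside -0.01 and -0.03. Over both days no gene of the 10 passed edgeR's test for shNFIB, where 0.292% of all genes did, or for shMLL1, where 0.0318% did. At an unadjusted p under 0.05 there were 4 of 6 for shNFIB and 2 of 6 for shMLL1, while 12.2% and 9.0% of all genes were at that level. DESeq2's test called 3 for shNFIB (H19, Ndn and Plagl1), where it called 3.71% of all genes, and 1 for shMLL1 (Ndn), where it called 2.57%. Both knockdown lines were compared with the same shControl libraries.

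A pair of further lists holds 27 imprinted genes from the clusters of these 10 genes and 26 imprinted genes from elsewhere. Of the cluster neighbours 12 had at least 10 counts in a library and 8 had no count at all, and of the other imprinted genes 20 had at least 10 counts. From day 0 to day 7, 3 of 11 tested neighbours rose and 2 fell, where 17.7% of all genes were called higher and 17.0% lower. Slc22a18 (0.95, SE 0.29, adjusted p = 0.0401), Osbpl5 (0.82, SE 0.19, adjusted p = 0.0190) and Mkrn3 rose, and Cobl (-3.91, SE 0.70, adjusted p = 0.00774) and Peg12 fell. Slc22a18 and Osbpl5 are in the cluster of Cdkn1c, and Cobl, an actin nucleator, lies next to Grb10 and fell with it, from 19, 59 and 38 counts to 3, 1 and 2. Of 18 other imprinted genes tested, 1 rose and 3 fell with day, beside the same shares of all genes. Zrsr1 rose by 0.77 (adjusted p = 0.0285), and Igf2r, the receptor that clears IGF2, fell by 0.78 (adjusted p = 0.0491), with Commd1 (-0.71) and Pon2 (-0.81) also lower. Zrsr1 and Commd1 overlap on opposite strands, and their counts are uncertain to that extent.

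None of the 11 neighbours and 18 other imprinted genes tested passed edgeR's test for either knockdown line. At an unadjusted p under 0.05 there were 3 neighbours and 4 other genes for shNFIB, and 3 and 5 for shMLL1, of 11 and 18 tested, beside 12.2% of all genes for shNFIB and 9.0% for shMLL1. DESeq2's test, which called 3.71% of all genes for shNFIB and 2.57% for shMLL1, called Osbpl5 among the neighbours and Dcn, Peg10, Ppp1r9a and Sgce among the others for shNFIB, and Slc22a18 and Dcn for shMLL1. Ppp1r9a, a neighbour of Peg10, resembled H19 in having 0 counts in both shNFIB libraries, with 27 and 48 in shControl and 20 and 85 in shMLL1. Against the floor it was at least 8.90-fold and at least 15.5-fold lower in shNFIB than in shControl at day 0 and day 7 (adjusted p = 0.0866, edgeR). Dcn, the proteoglycan decorin, was higher in both lines, with 1320 and 1702 counts in shControl, 5001 and 7856 in shNFIB and 3586 and 25671 in shMLL1, and did not pass (adjusted p = 0.280 and 0.189, edgeR). Imprinting of several of these genes, Dcn among them, is known from a limited set of tissues such as the placenta.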

How the data were processed

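The authors used Trimmomatic 0.39 to trim paired reads of 100 bases and HISAT2 2.2.1 to align them to GRCm38 (mm10), kept a mapping quality over 30 with SAMtools 1.12, removed PCR duplicates and counted reads per gene with HTSeq 0.11.1, and the deposited values are these raw counts. Annotation release and strand setting are not given in the sources used here; GENCODE M21 gave positions for 55141 of 55401 genes. Counts were scaled by TMM in edgeR 4.0.16 (R 4.3.3). Folds between 2 libraries used a prior count of 0.125 and were not tested. All 6 libraries entered each model, with terms for line and day and genes kept by filterByExpr on day. The test was edgeR's quasi-likelihood test, with DESeq2 1.42.0 as an alternative. The p-values measure only the spread between these libraries, which came from no stated separate cultures. With 1 library per line and day, that spread includes any response to day that varied between lines. Replicate noise cannot be told apart from such a response. The 2 days of a line come from the same derivative, which pairs them: their deviations from the day means correlated at 0.444 (shControl), 0.422 (shNFIB) and 0.264 (shMLL1) across genes. Intervals and floors (3 counts) cover counting error only, and were computed with scipy 1.17.1 in Python 3.11.15. The fits were tried on simulated counts with a biological coefficient of variation (BCV) of 0.2, where the fit of these data gave 0.277. For shNFIB, 30 of 196 tested genes with a true log2 fold change of 1 were called, and 193 of 198 with one of 2. For day these were 107 of 198 and 194 of 195. A knockdown difference near 2-fold that did not pass is therefore not shown to be absent. The simulated counts held no response to day that varied between lines, so that they do not give the share found here at larger differences. Nfib in its own knockdown line, at a log2 fold change of -2.44 over both days, did not pass (adjusted p = 0.14, edgeR). A larger difference that did not pass is thus not shown to be absent either. Genes named are the 10 genes, members of the lists, overlapping genes, and, for each of the 10 with 100 counts in a library, the 3 genes with the nearest profile. Members and lists were chosen with earlier results of these data known. Alternatives were other scalings, filters, tests, prior counts and blocks, and libraries left out; the contrast of shMLL1 with shNFIB was added after values were seen.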

Additional observations from a re-analysis of the deposited data

Results flagged for a closer look

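For H19, Grb10, Plagl1 and Ndn, log2 fold changes under the same contrast had 95% counting intervals on opposite sides of 0 in different lines. Such intervals cover counting error only and are narrow at high counts. The share of all genes that meet this rule was not counted, so it is not shown to be a trait of these genes. The log2 fold change of H19 from day 0 to day 7 was -1.41 in shControl and 1.65 in shMLL1, from 42 to 15 and from 7 to 18 counts, and this difference was not tested. Against shControl at day 0, Grb10 was at 0.45 in shNFIB and -0.83 in shMLL1, while at day 7 the values were 0.65 and -0.02. Over both days the difference between the knockdown lines for Grb10 was -0.87 (adjusted p = 0.184, edgeR). Plagl1 was at -1.49 in shNFIB and 0.77 in shMLL1 at day 0, and at -2.50 and 1.46 at day 7. Its difference between the knockdown lines over both days was 3.15 and did not pass (adjusted p = 0.0772, edgeR). Ndn was at 1.67 in shNFIB and -3.49 in shMLL1 at day 0, and at 2.01 and -2.52 at day 7. Its difference between the knockdown lines, -4.75, passed the test over both days (adjusted p = 0.0153, edgeR) and kept a value between -5.12 and -4.41 with any 1 compared library left out. That contrast was added after the values of Ndn and Plagl1 had been seen, and the call of Ndn was lost without day as a term. The differences at single days were not tested, since each condition has 1 library.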

How the results depend on the processing

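Without replicates inside a condition, the number of called genes in the knockdown fits moved most with the processing, and the cause was not tested beyond what each setting changes. For shNFIB against shControl, 46 genes and 0 of the 10 imprinted genes were called. DESeq2's test called 584 and 3, no filter on low counts 688 and 3, the 4 compared libraries alone 593 and 2, the fit with no replicate block (line alone) 0 genes, and fits without 1 compared library 39 to 108 genes and 0 to 1 of the 10. For shMLL1 against shControl, 5 and 0 were called. DESeq2's test called 405 and 1, no filter 526 and 2, the 4 compared libraries alone 199 and 1, no replicate block 0 genes, and fits without 1 library 23 to 626 genes and 1 to 2 of the 10. For shMLL1 against shNFIB, 40 and 1 were called, with 1116 and 2 by DESeq2's test, 1097 and 3 with no filter, 0 genes and 0 of the 10 with no replicate block, and 30 to 1478 genes and 1 to 3 of the 10 without 1 library. For day 7 against day 0, 5462 genes and 2 of the 10 were called, 2410 to 4977 and 2 to 3 without 1 line, and 1 of the 10, Grb10, with no replicate block. Without that block Dlk1 did not pass (-2.47, adjusted p = 0.245), and without the day term Ndn did not pass between the knockdown lines (-4.79, adjusted p = 0.791). The pairing changed no other call of the 10 genes. Between pairs of libraries, no minimum count raised the number over 2-fold from 4 to 7 (shControl by day), 2 to 4 (shNFIB by day), 4 to 7 (shMLL1 by day), 4 to 7 and 4 to 8 (shNFIB against shControl at day 0 and day 7) and 3 to 5 and 3 to 6 (shMLL1 against shControl), by adding genes near 0. An exact test at an assumed BCV of 0.2 lowered it to 2 for shControl by day, 1 for shMLL1 by day and 2 for shNFIB at day 0.

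In the fits, signs reversed only for values that did not pass. By day, H19 was at 0.09 with DESeq2's test, and without 1 line Plagl1 went from -0.34 to 0.39 and Mest from -0.03 to 1.02. Without 1 compared library, Mest ran from -0.96 to 0.16 for shNFIB, and for shMLL1 Mest ran from -1.64 to 0.57 and H19 from -2.40 to 0.60. For shMLL1 against shNFIB, Dlk1, with 0 counts in both lines at day 7, ran from -6.21 to 6.44 and Mest from -1.19 to 0.99. Scaling by library size alone moved the median of all genes by up to 0.21. Of 35 differences between pairs of libraries, 3 near 0 turned their sign under another scaling. With library size alone Ndn by day in shMLL1 went from -0.06 to 0.15, Grb10 in shMLL1 against shControl at day 7 from -0.02 to 0.09, and Mest by day in shNFIB from -0.02 to 0.08, or to 0.06 with TMM over protein-coding genes.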
